A study of Arabidopsis thaliana with 9 samples.

Results

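The 55 genes described here encode proteins of the large, 60S subunit of the cytosolic ribosome in Arabidopsis thaliana. They were taken by locus identifier from families named RPP0 and RPL3 to RPL32, by a rule that uses no expression value. The set was nevertheless chosen with earlier results of these data known, and some families of that range lie outside the set. A further 7 copies of 6 of the included families, such as AT1G61580 (RPL3) and AT4G36130 (RPL8), are also outside it, so counts, sums and shares per family cover only the copies in the set. All 55 were found among the 33977 gene rows of each of 3 deposited tables, and they fall into 24 protein families of which 22 have at least 2 copies in the set. RNA was sequenced from whole seedlings of the Columbia (Col) ecotype at 4 days of age, grown on MS plates under continuous white light. The 3 genotypes were the myb30 mutant, the MYB30-OE overexpressor and the wild type, here called Col, with 3 libraries each. MYB30 is a transcription factor of the R2R3 MYB family, studied for its part in hypersensitive cell death, brassinosteroid response and light signalling. The mutant allele, the promoter that drives the overexpressor and the number of independent lines are not given in the sources used here, and the labels do not say whether the libraries came from separate plantings.

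The ribosome is the RNA and protein machine that translates messenger RNA, and its large subunit holds the site of peptide bond formation, the tunnel through which the new protein leaves and the stalk that recruits elongation factors. Each position in the Arabidopsis large subunit is filled by the product of a small gene family, whose copies are similar in sequence and mostly expressed together. The genes are active where cells grow and divide, and their promoters are known for recurring telo box and site II elements; site II is bound by TCP factors in Arabidopsis.

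The values available are comparisons and not single libraries. For each gene and pair of genotypes the authors deposited a log2 fold change, its p-value without adjustment and the average level as log2 CPM (read counts scaled to a common library total), so no replicate values or standard deviations can be given. A gene is said to have risen or fallen where the Benjamini-Hochberg adjusted p, computed here over all genes with at least 1 read, was under 0.05. The spread behind such a p is that between the libraries sequenced, which may be technical. Levels are CPM values implied by the fold change and the average, and are approximations. The tables imply means of 36516306 gene reads per library in myb30, 32367678 in MYB30-OE and 33905536 in Col. MYB30 transcript was at 4.55 CPM in myb30 seedlings, at 622 CPM in MYB30-OE and at 32.0 CPM in Col, and because its direction served to read the sign of the tables it is no separate check of the labels.

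Promoter sequences of 4 members, picked after their values were seen, are shown because they span the range of promoter content and of expression found. Each run is the 250 bases before the RefSeq gene start in TAIR10.1, 5′ to 3′ on the strand of the gene, with capitals for site II (TGGGCC or TGGGCT, either strand) and the telo box (AAACCCTA, either strand). AT3G53020, the RPL24 gene also called STV1, has 5 site II elements at chr3:19662026-19662275, minus strand. AT4G27090, the RPL14 gene with the highest level per length, holds both elements at chr4:13595253-13595502, minus strand. AT4G10450, the RPL9 copy with the largest rise in myb30, has neither element at chr4:6464559-6464808, minus strand. AT1G36240, an RPL30 copy with almost no reads, has 1 of each at chr1:13614640-13614889, plus strand.
AT3G53020 (RPL24): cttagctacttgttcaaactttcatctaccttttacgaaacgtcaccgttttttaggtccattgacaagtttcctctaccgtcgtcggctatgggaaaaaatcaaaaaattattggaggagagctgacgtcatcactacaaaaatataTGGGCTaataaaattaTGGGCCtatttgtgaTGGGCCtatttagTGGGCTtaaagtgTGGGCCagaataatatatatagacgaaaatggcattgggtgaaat
AT4G27090 (RPL14): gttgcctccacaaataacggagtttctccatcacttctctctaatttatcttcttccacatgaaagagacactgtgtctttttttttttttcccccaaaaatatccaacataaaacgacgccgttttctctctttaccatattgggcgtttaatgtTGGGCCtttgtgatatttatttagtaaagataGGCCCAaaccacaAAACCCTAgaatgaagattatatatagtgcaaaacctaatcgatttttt
AT4G10450 (RPL9): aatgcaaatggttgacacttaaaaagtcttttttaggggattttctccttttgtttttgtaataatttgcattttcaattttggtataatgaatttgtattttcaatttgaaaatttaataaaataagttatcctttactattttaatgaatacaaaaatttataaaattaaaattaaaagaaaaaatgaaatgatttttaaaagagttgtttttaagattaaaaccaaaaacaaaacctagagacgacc
AT1G36240 (RPL30): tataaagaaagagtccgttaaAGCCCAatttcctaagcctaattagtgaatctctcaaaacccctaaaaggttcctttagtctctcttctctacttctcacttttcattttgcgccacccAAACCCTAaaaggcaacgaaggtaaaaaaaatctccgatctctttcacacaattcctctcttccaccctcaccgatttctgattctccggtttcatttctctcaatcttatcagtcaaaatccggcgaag

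Of the 55 genes, 54 stood at 1 CPM or more in every genotype. In Col they ranged from 17.3 CPM (AT2G40010) to 1030 CPM (AT1G02780). Together the 55 held 26718 CPM in myb30, 16894 CPM in MYB30-OE and 19604 CPM in Col, which is 2.67% of gene reads in myb30, 1.69% in MYB30-OE and 1.96% in Col. Per kilobase of exon the median of the 54 was 467 CPM in myb30, 307 CPM in MYB30-OE and 356 CPM in Col. The highest gene in all 3 genotypes was AT4G27090 (RPL14), at 1574 CPM per kilobase in myb30, 945 in MYB30-OE and 1112 in Col. Behind it in Col stood AT1G02780 (RPL19) at 999 CPM per kilobase, AT1G14320 (RPL10) at 915 and AT1G67430 (RPL17) at 818. The lowest of the 54 was AT2G40010, a minor copy of RPP0, at 17.1 CPM per kilobase in myb30, 12.2 in MYB30-OE and 15.0 in Col. AT1G36240 (RPL30) lay under the floor of 3 reads, with an implied 2 reads over the 6 libraries of myb30 and Col and 1 read over the 6 of MYB30-OE and Col, so no fold is given for it.

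**Figure D1:**
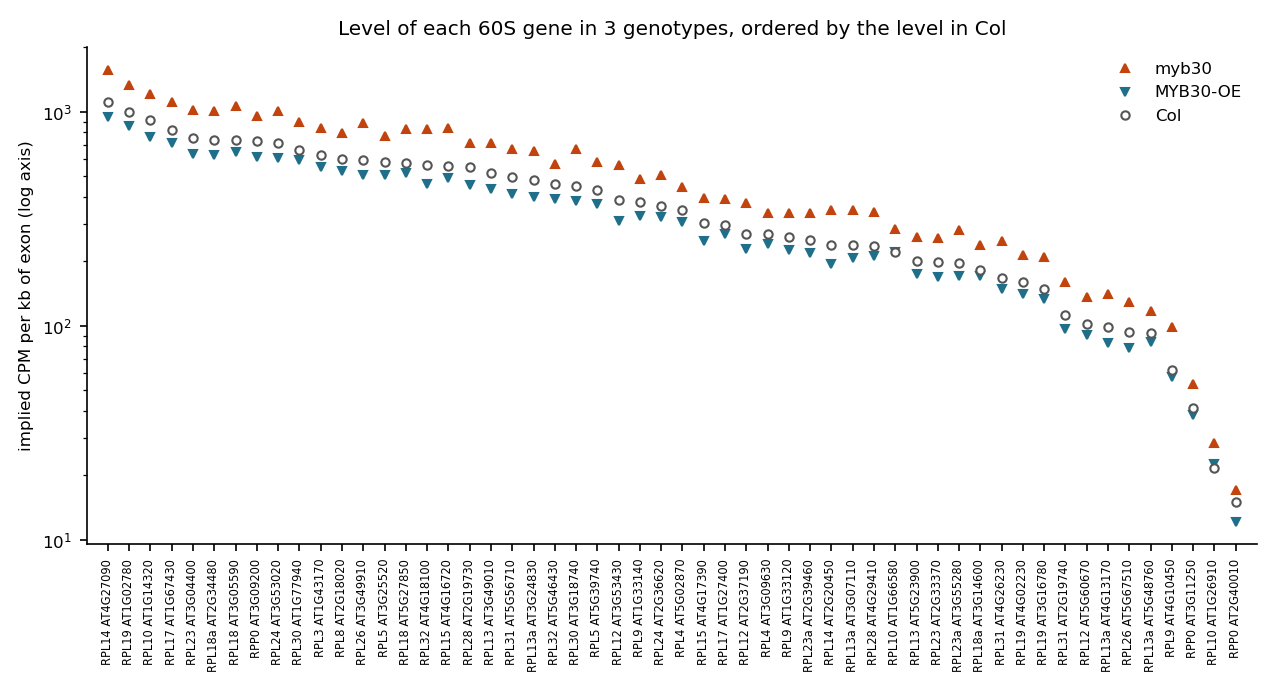
Implied CPM per kilobase of exon (log axis) for each 60S gene at 1 CPM or more, ordered by the level in Col, with 1 point each for myb30, MYB30-OE and Col. The levels run from 15.0 to 1112 CPM per kilobase in Col, and for 53 of the 54 genes plotted the myb30 value lies above the Col value and the MYB30-OE value below it.

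In the myb30 mutant, 53 of the 55 genes rose and 0 fell against Col, while 10.8% of the 25713 genes tested rose and 10.7% fell (21.5% in either direction). Among the 8905 genes at or above the level of the least abundant of the 54, 15.9% rose and 15.8% fell. Unadjusted p-values under 0.05 gave the same counts, 53 higher and 0 lower. In the authors' deposited table the median log2 fold change of the 55 was 0.42, against 0.01 over all genes tested. The changes were small and narrow in range: over the 54 genes they ran from 0.18 to 0.66 on the log2 scale, with quartiles of 0.37 and 0.50. A log2 fold change at or above the median of the 54 was found for 827 of those 8905 genes (9.29%), these 60S genes included.

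At the base of the stalk, where elongation factors dock, RPP0 anchors the acidic proteins and RPL12 binds beside it. AT3G53430 (RPL12) stood at 441 CPM in myb30 and 302 CPM in Col, a log2 fold change of 0.54 in the authors' deposited table (Benjamini-Hochberg adjusted p = 9.01e-04). AT3G09200, the RPP0 copy that gives 93.4% of the reads of the 3 RPP0 genes in Col, rose to 1272 CPM in myb30, against 971 CPM in Col (log2 fold change 0.38 in the authors' deposited table). Its minor copy AT2G40010, at 19.7 CPM in myb30 and 17.3 CPM in Col, had a log2 fold change of 0.18 in the authors' deposited table and did not pass (adjusted p = 0.400). It was the only one of the 54 that did not pass in this comparison.

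RPL3, RPL8 and RPL10 lie near the catalytic centre and RPL5 carries the 5S ribosomal RNA, and all 7 genes of these 4 families in the set rose in myb30. Their log2 fold changes ran from 0.34 to 0.42 in the authors' deposited table. The RPL3 gene AT1G43170, the only RPL3 copy in the set, was at 1329 CPM in myb30 and 990 CPM in Col. The RPL8 gene AT2G18020, also the only copy of its family in the set, was at 771 CPM in myb30 and 586 CPM in Col. RPL5 copies AT3G25520, at 969 CPM in myb30 and 729 CPM in Col, and AT5G39740, at 767 CPM in myb30 and 569 CPM in Col, differed by only 0.02 in their deposited log2 fold changes of 0.40 and 0.42. The main RPL10 copy AT1G14320, known as SAC52 and as a target of the NIK1 receptor kinase, was at 1175 CPM in myb30 and 889 CPM in Col.

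RPL4 and RPL17 line the exit tunnel, and RPL23a, RPL26 and RPL31 surround its mouth. All 11 genes of these 5 families in the set rose, with a median log2 fold change of 0.43 in the authors' deposited table. RPL26 copy AT3G49910 was at 633 CPM in myb30 and 425 CPM in Col, a log2 fold change of 0.56 in the authors' deposited table (adjusted p = 8.71e-06). RPL31 copy AT4G26230 was at 168 CPM in myb30 and 112 CPM in Col, a log2 fold change of 0.57 in the authors' deposited table (adjusted p = 6.80e-06). The smallest passing rises in this group were those of the RPL4 copies AT3G09630, at 0.32 in the authors' deposited table (adjusted p = 0.0448), and AT5G02870, at 0.35 (adjusted p = 0.0191). RPL4 was also the family with the smallest summed change, a log2 ratio of 0.33 for the summed CPM, while RPL26 had the largest at 0.55.

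RPL19, RPL23, RPL24 and RPL30 face the small subunit, and the 9 of their 10 genes in the set at 1 CPM or more all rose. AT3G18740 (RPL30) was at 374 CPM in myb30 and 250 CPM in Col, a log2 fold change of 0.57 in the authors' deposited table (adjusted p = 7.19e-05). AT3G53020, the RPL24 copy called STV1 and known for reinitiation of translation after upstream reading frames, was at 839 CPM in myb30 and 595 CPM in Col (log2 fold change 0.48 in the authors' deposited table, adjusted p = 7.15e-05). The RPL19 copies AT3G16780, AT1G02780 and AT4G02230 had deposited log2 fold changes of 0.49, 0.41 and 0.40.

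The other 9 families lie on the surface or in the core of the subunit, and all 21 of their genes in the set rose. AT4G10450 (RPL9) had the largest change of the 55, at 90.7 CPM in myb30 and 57.1 CPM in Col, a log2 fold change of 0.66 in the authors' deposited table (adjusted p = 2.69e-07). It is the minor RPL9 copy, and its share of the family's reads was 10.3% in myb30 and 8.54% in Col. AT4G16720 (RPL15) was at 740 CPM in myb30 and 487 CPM in Col, a log2 fold change of 0.59 in the authors' deposited table (adjusted p = 4.70e-07), while its partner AT4G17390 had 0.37 (adjusted p = 0.00576). AT4G18100 (RPL32) had 0.55 in the authors' deposited table (adjusted p = 2.00e-05) and its partner AT5G46430 had 0.30 (adjusted p = 0.0332). Both RPL14 copies stood high, AT2G20450 with a deposited log2 fold change of 0.53 and AT4G27090 with 0.49. AT4G29410 (RPL28) had 0.52 and its partner AT2G19730 had 0.35 in the authors' deposited table. Both RPL18 copies had deposited values that round to 0.51 and 0.52, and the RPL13a copies AT3G07110, AT4G13170, AT3G24830 and AT5G48760 had 0.53, 0.49, 0.44 and 0.34.

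**Figure D2:**
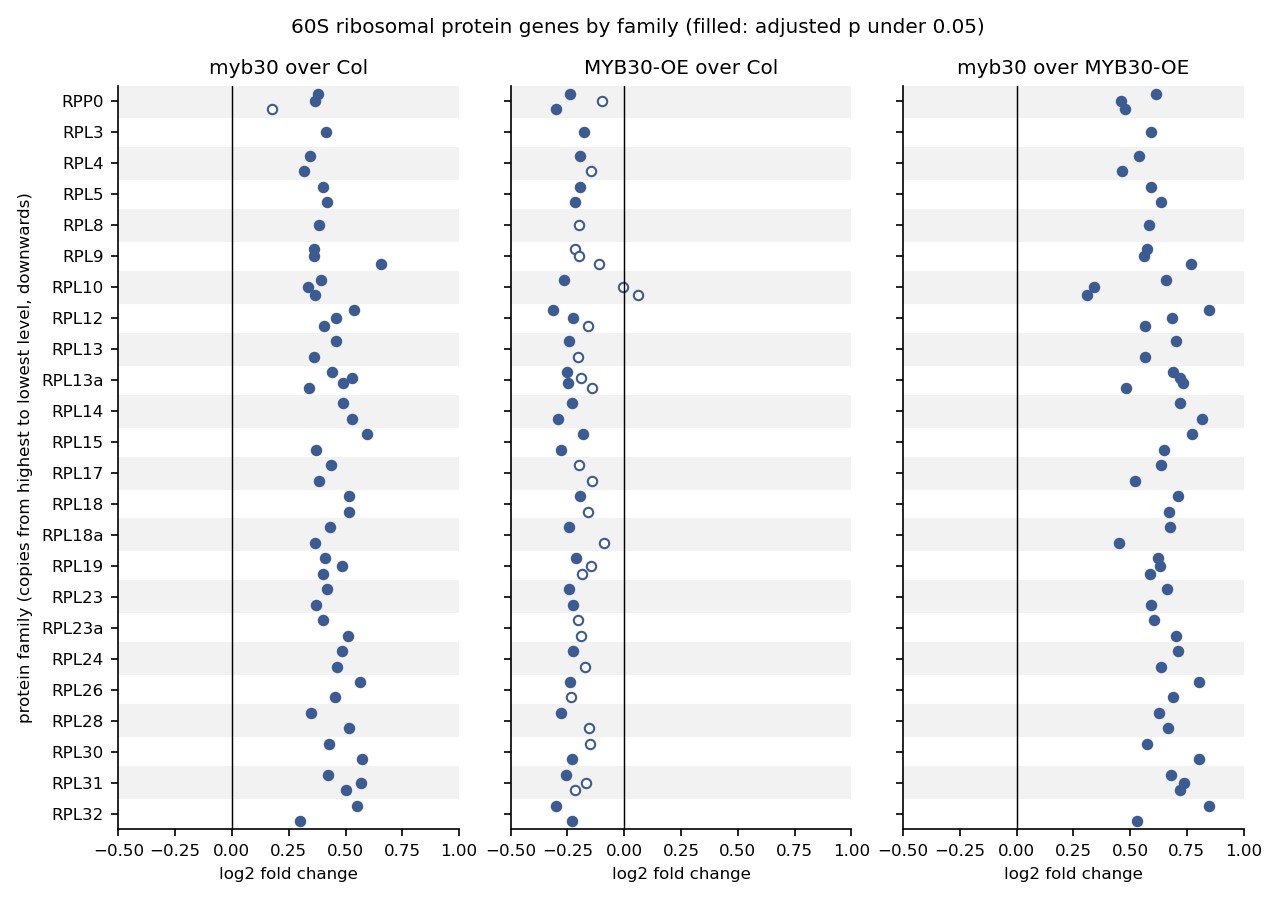
Log2 fold change in the authors' deposited tables for each copy at 1 CPM or more of the 24 protein families, in 3 panels for myb30 over Col, MYB30-OE over Col and myb30 over MYB30-OE; filled points passed an adjusted p of 0.05. All families lie right of 0 in the panels with myb30 on top, and all but 1 of the 54 genes at 1 CPM or more lie left of 0 in the second, that one being AT1G26910 (RPL10) at 0.06.

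In MYB30-OE, 28 of the 55 genes fell and 0 rose against Col, where 5.49% of the 25593 genes tested fell and 5.99% rose (11.5% in either direction). Among the 9692 genes at or above the level of the least abundant of the 54, 9.11% fell and 8.39% rose. Unadjusted p-values under 0.05 were found for 47 genes lower and 0 higher. Both lines were set against the same Col libraries, so the signs of their values are not independent, and whether the size differed between lines against Col was not tested. The median log2 fold change of the 55 was -0.20 in the authors' deposited table, against 0.00 over all genes tested, and the 54 genes at 1 CPM or more ran from -0.31 to 0.06. Some calls lay close to the threshold: 5 of the 28 had an adjusted p between 0.04 and 0.05, and 10 further genes had one between 0.05 and 0.1. At an adjusted p of 0.01, 11 genes still passed.

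The largest falls came from several parts of the subunit. AT3G53430, the stalk base protein RPL12, was at 243 CPM in MYB30-OE and 302 CPM in Col, a log2 fold change of -0.31 in the authors' deposited table (adjusted p = 4.14e-04). AT4G18100 (RPL32) was at 320 CPM in MYB30-OE and 394 CPM in Col, a log2 fold change of -0.30 in the authors' deposited table (adjusted p = 0.00129). AT2G20450 (RPL14) was at 126 CPM in MYB30-OE and 154 CPM in Col, a log2 fold change of -0.29 in the authors' deposited table (adjusted p = 0.00150). Values of -0.28 stood in the authors' deposited table for AT4G17390 (RPL15) and AT2G19730 (RPL28), both on the body of the subunit. AT5G56710 (RPL31, at the tunnel mouth) had -0.26, AT3G24830 (RPL13a) and AT4G13170 (RPL13a) had -0.25, and AT3G49010 (RPL13) and AT3G04400 (RPL23) had -0.24 in the authors' deposited table, and all 5 passed. The minor RPP0 copy AT2G40010, at 14.0 CPM in MYB30-OE and 17.3 CPM in Col, fell here (log2 fold change -0.30 in the authors' deposited table, adjusted p = 0.0436) and is the only one of the 55 to pass here and not in myb30.

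By role, 4 of 6 stalk base genes, 4 of 7 genes near the catalytic centre or the 5S RNA, 3 of 11 exit tunnel genes, 5 of 10 interface genes and 12 of 21 others fell in MYB30-OE. Differences between roles were not tested. Of the 24 families, 20 had at least 1 copy that fell, and none of the copies of RPL8, RPL9, RPL17 and RPL23a in the set passed. Summed over copies, every family was lower in MYB30-OE, with log2 ratios of summed CPM between -0.27 (RPL32) and -0.17 (RPL4).

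RPL10 had the widest range between copies in MYB30-OE. AT1G14320 was at 738 CPM in MYB30-OE and 889 CPM in Col and fell (log2 fold change -0.27 in the authors' deposited table, adjusted p = 0.00137). AT1G66580 was at 195 CPM in MYB30-OE and 196 CPM in Col, and AT1G26910 was at 19.8 CPM in MYB30-OE and 19.02 CPM in Col. These 2 copies had deposited log2 fold changes of -0.01 and 0.06 and did not pass, and a difference between copies was not tested. AT1G14320 gave 77.5% of RPL10 reads in MYB30-OE and 80.6% in Col. The protein of AT1G26910 is 97.3% identical to that of AT1G14320.

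Set against each other, myb30 and MYB30-OE differed in nearly the whole set: 54 of the 55 genes were higher in myb30 and 0 were lower, where 16.2% of the 25647 genes tested were higher and 15.4% lower (31.6% in either direction). Among the 9444 genes at or above the level of the least abundant of the 54, 23.7% were higher and 21.5% lower. Unadjusted p-values under 0.05 gave 54 and 0 as well. The median log2 fold change was 0.64 in the authors' deposited table (0.03 over all genes tested), and the 54 genes ran from 0.31 to 0.85. This comparison uses the same libraries as the other 2 and adds no independent sample.

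AT4G18100 (RPL32) had the widest difference, at 582 CPM in myb30, against 320 CPM in MYB30-OE, a log2 fold change of 0.85 in the authors' deposited table (adjusted p = 1.13e-14). AT3G53430 (RPL12) also had 0.85 (adjusted p = 2.07e-09), and AT2G20450 (RPL14) had 0.82 (adjusted p = 3.33e-14) in the authors' deposited table. AT3G49910 (RPL26) and AT3G18740 (RPL30) each had 0.80, and AT4G16720 (RPL15) and AT4G10450 (RPL9) each had 0.77, by the authors' deposited table. AT4G26230 (RPL31), AT4G13170 (RPL13a) and AT4G27090 (RPL14) followed with 0.74, 0.73 and 0.72, and AT3G07110 (RPL13a) and AT2G19740 (RPL31) also had 0.72. The smallest differences were those of the RPL10 copies AT1G26910, at 24.7 CPM in myb30, against 19.8 CPM in MYB30-OE (log2 fold change 0.31 in the authors' deposited table, adjusted p = 0.0358), and AT1G66580, at 249 CPM in myb30, against 195 CPM in MYB30-OE (0.34, adjusted p = 0.00698). Of the 55 genes, 27 passed in both lines against Col, higher in myb30 and lower in MYB30-OE. A further 26 passed in myb30 alone, 1 in MYB30-OE alone and 1 in neither. Both comparisons use the same Col libraries, and the share of all genes with each joint pattern was not computed. These joint counts are therefore not read as a result about overlap.

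**Figure D3:**
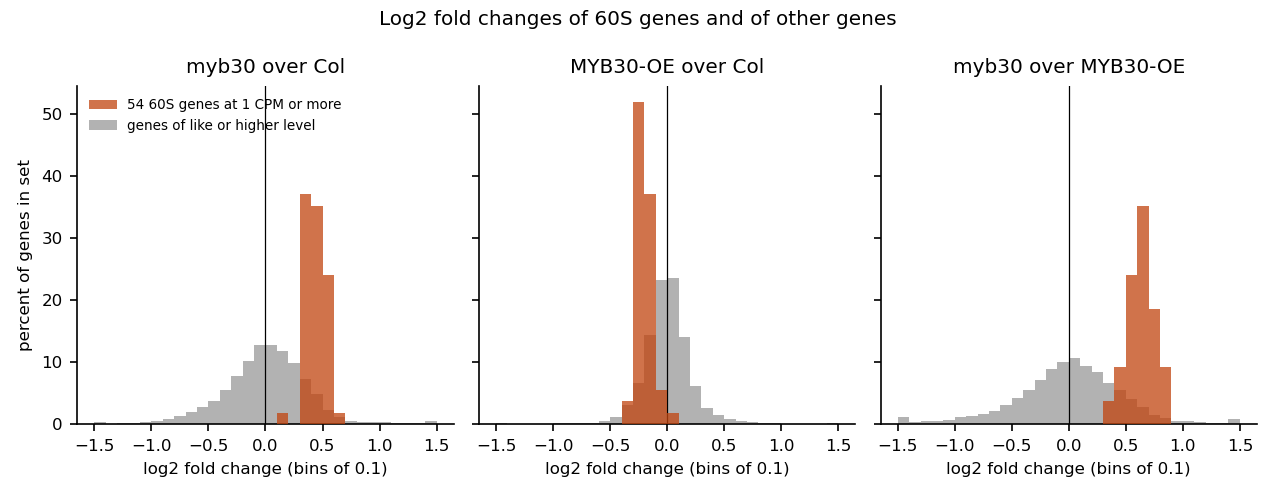
Percent of genes in each log2 fold change bin of 0.1 (values beyond the axis are pooled in the end bins) for the 54 genes at 1 CPM or more and for all genes at or above the level of the least abundant of them, in 3 panels for myb30 over Col, MYB30-OE over Col and myb30 over MYB30-OE. The 60S genes form a narrow group around 0.42, -0.20 and 0.64, inside the wider spread of the other genes, whose medians lie at 0.02, 0.00 and 0.02.

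Copies of 1 family mostly had values near each other, but so did the 54 genes as a whole. Quartiles of the 54 were 0.37 and 0.50 in myb30 over Col and -0.24 and -0.17 in MYB30-OE over Col. In myb30 over MYB30-OE they were 0.57 and 0.71. Whether copies of a family lie closer than other genes of the set was not tested. Over the 22 families with at least 2 copies in the set, the median range between copies was 0.10 on the log2 scale in myb30 over Col, 0.07 in MYB30-OE over Col and 0.11 in myb30 over MYB30-OE. The widest ranges were 0.30 for RPL9 in the first, and 0.32 and 0.35 for RPL10 in the other comparisons. The narrowest was that of the RPL18 copies in myb30 over Col. Reads from near-identical copies can be split wrongly. Of the 55 genes, 46 share no 50-base exon stretch with another place in the genome. A further 7 share up to 4.81%, and the RPL9 copies AT1G33140 and AT1G33120 share 57.1% and 53.4%. For stretches that cross an intron, spliced copies outside the set were not searched. The proteins of that pair are 100% identical, so the division of reads between them is uncertain. Their deposited log2 fold changes were 0.36 and 0.36 in myb30 over Col and -0.21 and -0.20 in MYB30-OE over Col. Of the 55 genes, 14 overlap a gene on the opposite strand, this RPL9 pair included, and since strandedness of the libraries is not given, reads of the partners cannot be told apart. Among those 14, 13 rose in myb30 and 5 fell in MYB30-OE, against 40 and 23 of the other 40 at 1 CPM or more.

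The promoters of the set shared elements that the choice of genes did not use. In the 250 bases before the RefSeq start, 42 of the 55 genes (76.4%) had a site II element, against 19.2% of 27443 protein-coding genes, and 31 (56.4%) had 2 or more, against 11.95%. A telo box stood there in 14 genes (25.5%), against 4.49%. These shares are not particular to the set: of 81 further 60S genes outside it, 69.1% had a site II element, 55.6% had 2 or more and 27.2% had a telo box. The telo box count depended on where the start was placed: with the starts of the deposited TAIR10 annotation, chosen after the data were seen, 36 genes (65.5%) had one, against 6.30% of all genes. The 100 bases downstream of the RefSeq start held a telo box in 30 genes (54.5%), against 3.88%. Site II counts moved less, to 47 genes (85.5%) with the deposited starts. A match is a description of letters and not a binding site.

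**Figure D4:**
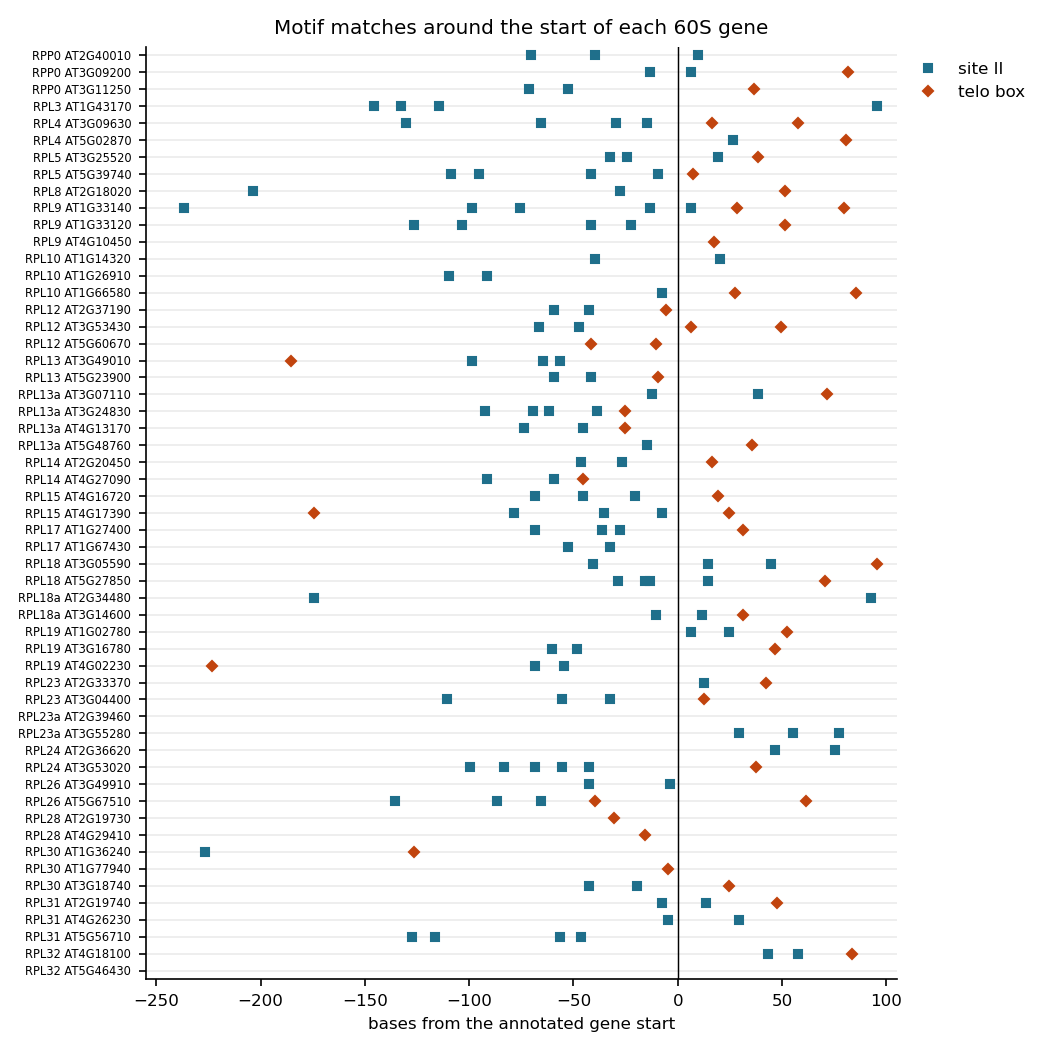
Position in bases from the RefSeq gene start (0) of each site II and telo box match for every 60S gene, from 250 bases before the start to 100 bases after it; genes run down the page by family. Site II matches lie mainly before the start, and telo boxes were found in 14 genes before it and in 30 genes after it.

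Changes of genes with and without these elements were set side by side, without a test. In myb30 over Col, the median log2 fold change in the authors' deposited table was 0.43 for the 41 expressed genes with a site II element and 0.41 for the 13 without one. In MYB30-OE over Col these medians were -0.21 and -0.19. With the RefSeq starts, 9 expressed genes had neither element; their median was 0.41 in myb30 over Col, and all 9 rose. That group depends on the start: with the deposited starts 6 of the 9 gain an element. The 4 genes with neither are then AT4G10450, AT2G39460, AT5G46430 and AT2G40010. The first 3 are from the 9, while AT2G40010 has 2 site II elements with the RefSeq start, which lies 324 bases from the deposited one. These 4 had a median of 0.35, with 3 of 4 risen and AT2G40010 not passing. With the deposited starts the medians in myb30 over Col were 0.43 for the 46 genes with a site II element and 0.40 for the 8 without one. AT4G10450 (RPL9), whose promoter is printed above, has neither element in the window before either start. A telo box does lie just downstream in this gene, at bases 14 to 21 from the RefSeq start. Matches after the start are not counted in the groups above. AT3G53020 (RPL24), with 5 site II elements, had 0.48, and AT4G27090 (RPL14), with both elements, had 0.49. AT1G36240 (RPL30), with both elements, had almost no reads.

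Other genes of the pathway gave the wider picture. Of 81 further 60S genes outside the set (acidic stalk proteins, RPL6, RPL7, the smaller proteins up to RPL41 and the 7 further copies), 64 of the 78 measured rose in myb30 and 0 fell, with a median log2 fold change of 0.43, where 10.8% of all genes tested rose. In MYB30-OE 45 of 77 fell and 0 rose (median -0.24), where 5.49% of all genes fell. In myb30 over MYB30-OE 73 of 78 were higher and 0 lower (median 0.65), where 16.2% of all genes were higher. By unadjusted p under 0.05, 71 were higher and 0 lower in myb30, and 1 was higher and 58 were lower in MYB30-OE. AT2G32220, of the L27e family, had the largest values in both lines among those at 1 CPM or more, with log2 fold changes in the authors' deposited tables of 0.78 in myb30 over Col, -0.51 in MYB30-OE over Col and 1.28 in myb30 over MYB30-OE. Next in myb30 over Col were the acidic stalk gene AT3G44590 (RPP2) at 0.61 and AT1G70600 (RPL27a) at 0.61, and next in MYB30-OE over Col were the RPL41 genes AT3G08520 at -0.42 and AT3G11120 at -0.39. In myb30 over MYB30-OE the RPL35a gene AT1G07070 had 0.94, and AT3G28500 (RPP2), under 1 CPM, had 1.74.

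Ribosome assembly factors, which process ribosomal RNA and load proteins in the nucleolus, were measured as a list of 27. Of these, against 10.8% of all genes tested, 21 rose in myb30 and 0 fell by either p (median log2 fold change 0.50 in the authors' deposited table), with WDR12 (AT5G15550) at 0.70, the fibrillarin gene FIB2 (AT4G25630) and PPAN (AT5G61770) at 0.62. In MYB30-OE, 1 of the 27 fell, the growth regulator EBP1 (AT3G51800) at -0.20, and the median was -0.09. With 5.49% of all genes falling, that count is near the background. By unadjusted p under 0.05, 5 of the 27 were lower and 0 higher. Of 11 translation elongation factor genes, 5 rose in myb30, led by AT5G19510, AT5G12110 and AT2G18110 of EF1B at log2 fold changes of 0.46, 0.35 and 0.32 in the authors' deposited table, and 2 fell in MYB30-OE, AT5G12110 of EF1B at -0.72 and AT5G60390 of EF1A at -0.22. Over all genes tested, 10.8% rose in myb30 and 5.49% fell in MYB30-OE; no test of the list was made. In myb30 over MYB30-OE, 24 of the 27 assembly factors and 9 of the 11 elongation factors were higher, where 16.2% of all genes were, and 0 of either were lower, by adjusted p and by unadjusted p under 0.05 alike. NUC-L2, BRX1-1 and NHP2 had the largest of these differences among assembly factors, 0.87, 0.75 and 0.75, and AT5G12110, AT5G19510 and AT5G60390 among elongation factors, 1.07, 0.60 and 0.53.

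Of 9 genes that regulate ribosomal protein genes or ribosome activity (the TOR kinase, its partner RAPTOR1B, the S6 kinases, NIK1, LIMYB, TCP20 and others), 0 passed in myb30, where 1 was higher and 1 lower by unadjusted p under 0.05. In MYB30-OE, TOR (AT1G50030, log2 fold change 0.29 in the authors' deposited table) and S6K2 (AT3G08720, 0.39) rose and S6K1 (AT3G08730, -0.36) fell. In myb30 over MYB30-OE, S6K1 (0.58) and TCP20 (0.52) were higher, and TOR (-0.52), RAPTOR1B (-0.38) and LIMYB (-0.37) were lower, by the authors' deposited table. Over all genes tested, 21.5% passed in either direction in myb30 over Col, 11.5% in MYB30-OE over Col and 31.6% in myb30 over MYB30-OE. The list holds only 9 genes and was not tested, so the counts of 0, 3 and 5 are not read as a result about these regulators.

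Markers of other tissues were read beside the set, as lists of 2 or 3 genes that were not tested. Of all genes tested, 10.8% rose and 10.7% fell in myb30, and 5.99% rose and 5.49% fell in MYB30-OE. In myb30 over MYB30-OE, 16.2% were higher. Mesophyll markers (LHCB1.1, LHCA1 and RBCS1A) summed to 14937 CPM in myb30, 27129 CPM in MYB30-OE and 23336 CPM in Col, with 3 of 3 lower in myb30 and 1 of 3, LHCA1, higher in MYB30-OE. By unadjusted p under 0.05, all 3 were higher in MYB30-OE. Root hair markers (EXPA7 and COBL9) summed to 37.0 CPM in myb30, 27.8 CPM in MYB30-OE and 19.1 CPM in Col, and both rose in both lines. Seed reserve genes (CRA1, CRB and SESA1) summed to 305 CPM in myb30, 54.6 CPM in MYB30-OE and 5.92 CPM in Col, where 2 of the 3 were under 1 CPM, and all 3 rose in both lines. The dividing cell markers CYCB1;1 and KNOLLE summed to 45.8 CPM in myb30, 29.4 CPM in MYB30-OE and 36.8 CPM in Col; neither passed in myb30 (1 was higher by unadjusted p under 0.05), CYCB1;1 fell in MYB30-OE and both were higher in myb30 than in MYB30-OE. No marker was listed at 0. The part of these differences in the values of the 60S genes was not tested, and in whole seedlings more cells of a type and more RNA per cell cannot be told apart.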

How the data were processed

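RNA from 9 libraries of whole seedlings (3 genotypes, 3 libraries each) was compared. TopHat, Cuffdiff and Cufflinks, and the build TAIR10, are named in the submitters' processing notes without versions. The sources used here do not give the step that counted reads or the strandedness. Per the file headers, the authors' tables hold, for each of 3 genotype pairs, log2 fold changes, p-values without adjustment and mean levels as log2 CPM. No values of single libraries were used. The sign of the fold changes was read from MYB30 and is given as the first-named genotype over the second.

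Rows with no read were left out, and the deposited p-values were adjusted by Benjamini-Hochberg over 25713, 25593 and 25647 genes, with a threshold of 0.05. Implied CPM per genotype was solved from the mean level and the fold change, on the assumption that the tool added 2 reads per library. Col levels of the 60S genes from its 2 tables differed by a ratio of 1.02, and were averaged. Exon lengths come from the deposited TAIR10 annotation. Promoters and gene starts were read from the RefSeq TAIR10.1 assembly; all 55 coding sequences of the deposited annotation begin with ATG there.

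By rule, the text names the 12 strongest changes in either direction per comparison (adjusted p under 0.05, mean level from 1 CPM up), then low genes, RPP0 and, from each list, the 3 largest passing changes per direction. The members and lists (9 lists, 139 genes) were chosen with earlier results of these data known. Protein identities come from global alignment of translated RefSeq TAIR10.1 coding sequences. Python 3.11.15, pandas 2.3.3, scipy 1.17.1 and Biopython 1.88 were used. Only the adjustment step (on simulated p-values) and the arithmetic of the CPM derivation (on simulated counts) were tested. The simulated levels were built with the same 2 added reads per library, so that assumption could not be checked. Neither could the authors' own test. The grouping of families by role, the window after the gene start and the promoters printed were chosen after the data were seen.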

Additional observations from a re-analysis of the deposited data

How the results depend on the processing

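In myb30 over Col, the count of 53 risen 60S genes became 8 with Bonferroni adjustment and 2 with a fold change of at least 1.5; the other alternatives gave 43 to 53. In MYB30-OE over Col, the count of 28 fallen genes became 11 at an adjusted p of 0.01, 0 with Bonferroni adjustment, 7 with at least 1.2-fold and 0 with at least 1.5-fold; the others gave 22 to 31. The cause was not tested beyond the stricter limits themselves. In myb30 over MYB30-OE, counts were 38 to 54. No value changed sign. Median log2 fold changes were 0.40 (myb30), -0.21 (MYB30-OE) and 0.61 (between lines) when centred on all genes; 0.43, -0.21 and 0.65 with copies summed per family; 0.45 and 0.67 (myb30 over Col and over MYB30-OE) for genes under 95% protein identity to a copy; and 0.63 between lines with a pseudocount of 1. The telo box count moved from 14 to 36 with the starts of the deposited annotation, an alternative added after the data were seen. No paired analysis was possible because the deposited tables hold no values of single libraries, and leaving out single libraries was not run for that reason. AT1G36240 has at most 2 implied reads in 6 libraries, so no change was read for it.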

Other observations

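Among the genes of cytosolic translation measured beside the 60S set, a few stood apart from their group. AT5G12110, an EF1B subunit of the elongation factor that reloads EF1A with GTP, was at 9.98 CPM in MYB30-OE and 16.5 CPM in Col, a log2 fold change of -0.72 in the authors' deposited table, while the median of the 11 elongation factor genes was -0.09. It was at 0.35 in myb30 over Col in the same set of tables. AT2G32220, a low member of the L27e family, was at 6.78 CPM in MYB30-OE and 9.64 CPM in Col. These genes were singled out after their values were seen.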
